A study of Ovis aries with 40 samples.

Results

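The genes described here encode the core machinery that makes microRNAs and carries out their silencing, with DICER1 and TNRC6B as the leading pair. The 8 genes looked for were DROSHA, DGCR8, XPO5, DICER1, AGO1, AGO2, TNRC6A and TNRC6B. A gene was represented by every probe set whose annotation gave it as the only symbol, and the brightest of these on average was taken as its main value. By this rule 4 of the 8 were measured, of 9155 genes in all: DGCR8 (Entrez 540254), DICER1 (Entrez 337871), AGO2 (Entrez 404130) and TNRC6B (Entrez 528167), with 7 probe sets together. No probe set carried DROSHA, XPO5, AGO1 or TNRC6A as its single symbol in the annotation used here, and these genes were not analysed here. TNRC6B was selected on its many strong correlations with other genes over these same animals, and DICER1 was picked with its values in these animals known. The levels and correlations of this pair are therefore given as a description and without a test. The other members were named for their place in the pathway, though with earlier results of these data known.

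The samples were longissimus dorsi, the long back muscle, of 40 sheep fathered by 6 Poll Dorset sires, with 1 array per animal. Sires were extreme for the estimated breeding value for eye muscle depth, and their progeny were labelled accordingly. The high muscling group held 19 animals, 8 from sire 11, 7 from sire 2 and 4 from sire 7, and the low muscling group held 21 animals, 8 from sire 16, 5 from sire 17 and 8 from sire 5. The animals were raised under Australian industry conditions, were 78 weeks old by the study's account, and carried no other treatment in the labels. All progeny of a sire carried the same muscling label, so the breeding value of a sire and everything else its family shares cannot be told apart. The array was made for cattle, and all values are signals on its linear scale or their log2. A level is never compared between different probe sets, because the brightness of a probe set depends on its own probes.

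MicroRNAs are short RNAs that silence messenger RNAs. A primary transcript is cut in the nucleus by the Microprocessor, in which the RNA-binding protein DGCR8 positions the nuclease DROSHA, and the hairpin is exported by XPO5 with RAN. The nuclease DICER1 then cuts the hairpin to a duplex in the cytoplasm, an Argonaute protein such as AGO2 takes up 1 strand, and GW182 proteins such as TNRC6B bind the Argonaute and recruit the CCR4-NOT complex, which shortens the poly(A) tail of the target. Loss of Dicer in the developing muscle of mice is known to impair muscle growth.

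All 4 measured genes were above the detection signal of 61.8, the median over the probe sets of the array other than controls, as were 6360 genes in all. The sum of skeletal muscle fibre markers lay between 127160 and 182865 in all animals, with 6 of 6 measured markers detected and 0 called between the muscling groups. The log2 ratio of the 3' to the 5' control probe sets, a sign of RNA quality averaged over actin and GAPDH, had a median of 0.13 in the high and 0.12 in the low muscling group. By family its median was highest in sire 11, at 0.186 (0.093 to 0.235), and lowest in sire 7, at 0.054 (0.036 to 0.095). The median signal of an array was 60.4 to 64.6 in sire 11 and 65.6 to 66.95 in sire 7. Differences between these 2 sires are given below without these measures as covariates. Over all detected genes, limma with sire as a random block called 145 higher and 350 lower in high muscling at an adjusted p under 0.05, and 93 higher and 564 lower when each array was centred on its median. Without the progeny of sire 5 it called 7 and 16, and without those of sire 16 it called 9 and 20. An unadjusted p under 0.05 was then still found for 12.2% and 12.1% of genes, beside 21.8% with all families. Calls also fell without sire 2 (94 and 196) or sire 7 (81 and 191). They rose without sire 11 (233 and 452) or sire 17 (383 and 838). The limma F test among sires within the muscling groups called 1402 genes.

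**Figure D1:**
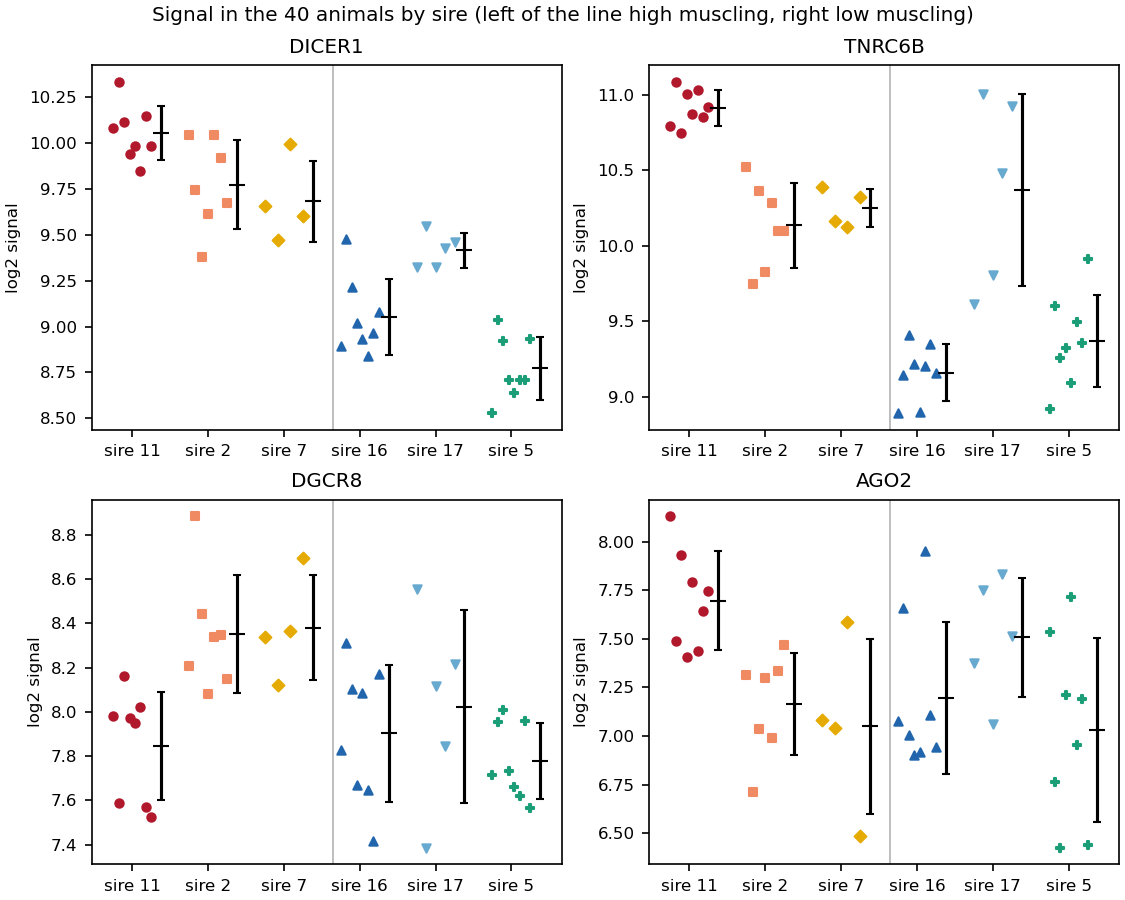
Log2 signal of the main probe set of DICER1, TNRC6B, DGCR8 and AGO2 in each animal (1 point), by sire on the x axis, with high muscling sires left of the grey line and low muscling sires right of it. The dash and bar beside the points are the mean and SD of the sire's progeny. DICER1 is high in all 3 high muscling families, while TNRC6B in the progeny of sire 17 spreads from 783.3 to 2053.9 in signal.

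DGCR8, the RNA-binding partner of the Microprocessor, was measured by a pair of probe sets that did not move together. On the main one, the signal was 184.3 at the lowest, 283.5 at the median and 472.5 at the highest in the 19 high muscling animals. In the 21 low muscling animals it was 167.4, 230.1 and 375.5. The groups overlapped over most of their range: 2 high muscling animals were above every low muscling animal. The fitted log2 difference, high minus low muscling, was 0.28 (SE 0.14), with a limma adjusted p of 0.225. The share of detected genes called in this comparison was 7.78%, of which 2.28% of genes were higher in high muscling and 5.50% lower. Of the 2 genes tested here, DGCR8 and AGO2, 0 were called by limma, and 1 of them, DGCR8, had an unadjusted p under 0.05, as did 21.8% of all genes. With quantile normalization or median centring, 0 of the 2 had an unadjusted p under 0.05, beside 21.8% and 24.6% of all genes. The log2 difference of DGCR8 was then 0.25 and 0.22. An exact permutation test of the 3 high against the 3 low sire means gave p = 0.3 (two-sided), where 0.1 is the smallest this design allows.

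Between the families of a muscling group, DGCR8 passed the test on its main probe set. The lowest, median and highest signals were 184.3, 249.25 and 286.8 in the progeny of sire 11. They were 271.0, 324.0 and 472.5 in those of sire 2. The 4 animals of sire 7 had signals of 324.1, 278.6, 329.8 and 414.6. Sire 11 was thus below both other high muscling sires, by -0.50 (SE 0.15) against sire 2 and -0.53 (SE 0.17) against sire 7 on the log2 scale. Its progeny lay at the level of the low muscling families, whose medians were 249.25 for sire 16 and 211.5 for sire 5. The 5 animals of sire 17 had signals of 375.5, 167.4, 277.5, 230.1 and 297.1, which spanned the whole range of the low muscling group. The F test among sires within groups gave an adjusted p of 0.0267 by limma, in a comparison that called 22.0% of genes. Without the progeny of sire 11 the difference between the muscling groups was 0.47 (adjusted p = 0.0133 by limma). Without each other family in turn it lay between 0.17 (sire 2) and 0.32 (sire 17) and was not called. The limma adjusted p in these fits ran from 0.0742 (sire 17) to 0.677 (sire 5). The F test among sires gave an adjusted p of 0.0967 with the 3' to 5' ratio as a covariate.

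The second DGCR8 probe set put the families in another order. Its signals were 88.4, 126.8 and 185.9 (lowest, median and highest) in high muscling and 68.9, 100.5 and 158.6 in low muscling. The mean log2 level was highest in sire 11 (7.05, SD 0.23, n = 8), the family that was lowest of the high muscling sires on the main probe set. In a fit over all 7968 detected probe sets, added after the data were seen, its difference between sires 11 and 2 was 0.22, against -0.50 on the main probe set. Its difference between the muscling groups was 0.24 (SE 0.13, limma adjusted p = 0.308), close to that of the main probe set, and its F test among sires had an adjusted p of 0.0542 by limma. Over the 40 animals the pair had a Pearson r of 0.03, and -0.19 with sire means removed. The probe sets shared the order of the low muscling sires, with 17 above 16 and 16 above 5, and sire 5 as the lowest of all. The main DGCR8 signal also moved with the brightness of the whole array: r with the array's median signal was 0.66, and 0.52 with sire means removed. The median signal was 64.0 at the middle of the high and 61.2 at the middle of the low muscling arrays, and the F test of the main DGCR8 probe set among sires gave an adjusted p of 0.0345 by limma with each array centred on its median and of 0.032 with quantile normalization.

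DICER1, the nuclease that makes the microRNA duplex, had the higher signal in the high muscling animals. A single probe set measured this gene, so no other could be set beside these levels. Its signal was 665.5, 980.9 and 1287.8 (lowest, median and highest) in the 19 high muscling animals. In the 21 low muscling animals it was 369.1, 500.2 and 748.3. The groups overlapped in a narrow band: 17 of 19 high muscling animals were above every low muscling animal, and 17 of 21 low muscling animals were below every high muscling animal. The median was 1.96 times as high in high muscling. The fitted log2 difference was 0.80 (SE 0.11), and it ranged from 0.64 to 0.94 when each sire family was left out in turn. All 3 high sire means were above all 3 low sire means, as they were for 7.85% of detected genes, and 0% of genes had every high muscling animal above every low muscling animal. The gene was chosen with these levels known, and nothing is read from that share.

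By family, DICER1 was highest in the progeny of sire 11, at 921.3, 1046.15 and 1287.8 (lowest, median and highest). The progeny of sire 2 had 665.5, 856.7 and 1054.8, and those of sire 7 had 806.2, 710.5, 1018.1 and 777.0. Sire 11 was above sire 2 by 0.28 (SE 0.10) on the log2 scale, and sires 2 and 7 differed by 0.09 (SE 0.12), less than the SD of either family, 0.24 and 0.22. In the low muscling group, the 5 animals of sire 17 had 641.1, 748.3, 640.4, 688.5 and 703.3. Their highest value was above the lowest of sires 2 and 7, so these families overlapped across the muscling label. The progeny of sire 16 had 458.6, 510.0 and 713.0, and those of sire 5 had 369.1, 418.85 and 525.0. Of the total sum of squares of DICER1, 70.3% lay between the muscling groups, 17.6% between sires of a group and 12.1% among progeny of a sire, while the medians over detected genes were 5.44%, 16.1% and 74.1%. The SD among progeny of a sire was 0.19 on the log2 scale, where the median gene had 0.34. DICER1 was picked with its values known, so these contrasts with the median gene are a description only.

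Most fibroblast markers differed between the groups beside DICER1, while no marker of the other cell types named here was called. Of 5 fibroblast markers, all detected, 4 were called lower in high muscling by limma: COL3A1 at -1.08 (adjusted p = 0.0251), COL1A1 at -0.83 (adjusted p = 0.0343), COL1A2 at -0.78 (adjusted p = 0.0278) and DCN at -0.37 (adjusted p = 0.0499). The fifth, PDGFRA, had a log2 difference of 0.30 (adjusted p = 0.721). Their summed signal ran from 4633.8 to 11364.9 in high and from 7193.9 to 21720.5 in low muscling animals. The Pearson r of this sum with DICER1 was -0.62 over the 40 animals and 0.07 with sire means removed. For TNRC6B the same values were -0.58 and -0.06. Sums of endothelium, leukocyte and smooth muscle markers had r of -0.62, -0.56 and -0.54 with DICER1 over all animals. With sire means removed, r was -0.07, -0.06 and -0.13. Each list had 4 detected genes and 0 called between groups. Log2 differences were above 0 for 1 endothelium gene (VWF, 0.24) and 2 smooth muscle genes (MYH11, 0.07, and RGS5, 0.11). None of the leukocyte genes was above 0. The brightest genes were PECAM1 in the endothelium list (mean signal 1309.3) and ACTA2 in the smooth muscle list (3705.0). The fat cell markers, 3 of 4 measured ones detected and 0 called between groups, summed to between 173.8 and 3179.2 in high and between 278.0 and 4114.8 in low muscling, with r of -0.38 with DICER1 and -0.24 with sire means removed. In bulk muscle, fewer cells of a type and less RNA per cell cannot be told apart.

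AGO2, the Argonaute that can itself cut a fully matched target, was not called between the muscling groups. Its main probe set had signals of 89.6, 169.5 and 280.5 in high muscling and of 86.0, 138.2 and 247.4 in low muscling (lowest, median and highest), so the ranges covered each other almost fully. The fitted log2 difference was 0.11 (SE 0.17, limma adjusted p = 0.774), and it turned to -0.10 without the progeny of sire 11 and to -0.001 without those of sire 5. The exact permutation test of sire means gave p = 0.8.

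Between families AGO2 did differ, with a limma F test adjusted p of 0.0289. The progeny of sire 11 had signals of 169.5, 207.4 and 280.5 (lowest, median and highest). Those of sire 2 had 104.7, 157.3 and 176.9, just reaching the lower end of sire 11. The 4 animals of sire 7 had 135.4, 131.9, 192.5 and 89.6. Sire 11 exceeded sire 2 by 0.53 (SE 0.19) and sire 7 by 0.65 (SE 0.22) on the log2 scale, the opposite direction to that of the main DGCR8 probe set. Among the low muscling sires, the 5 animals of sire 17 had 165.9, 215.5, 133.7, 227.8 and 183.2. Those of sire 16 had 119.6, 131.85 and 247.4, and those of sire 5 had 86.0, 135.05 and 209.9. Sire 17 stood highest in this group, 0.48 (SE 0.20) above sire 5. The second AGO2 probe set kept this order at the ends: sire 11 was highest at a mean log2 level of 7.40 (SD 0.28, n = 8) and sire 5 lowest at 6.91 (SD 0.26, n = 8), and its F test had an adjusted p of 0.02 by limma. The pair of AGO2 probe sets had r = 0.51, and 0.25 with sire means removed. The summed signal of fat cell markers moved against AGO2, with r of -0.57 over the 40 animals and -0.50 with sire means removed. Its median was 391.8 in sire 11, the lowest of the families, and 847.2 in sire 5, the highest. FABP4 led this sum, with a mean signal of 624.8 beside 182.6 for ADIPOQ and 70.8 for CIDEC. Mean log2 levels of FABP4 and CIDEC were lowest in sire 11, but that of ADIPOQ was lowest in sire 17 (6.70, beside 6.94 in sire 11). The part of fat cell content in the family differences of AGO2 was not tested. The call on the main probe set was near the threshold: the adjusted p was 0.0508 without progeny 85 of sire 17 and 0.0517 with the 3' to 5' ratio as a covariate.

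TNRC6B, the GW182 protein that links the Argonaute to the deadenylases, had the wider range of the leading pair. Its main probe set had signals of 860.0, 1340.3 and 2175.7 in high muscling and of 474.6, 652.9 and 2053.9 in low muscling (lowest, median and highest). The median was 2.05 times as high in high muscling. All 19 high muscling animals were above the low muscling median, and 16 of 21 low muscling animals were below every high muscling animal, yet no more than 2 high muscling animals were above every low muscling animal. Of the 5 low muscling animals inside the high muscling range, 4 were progeny of sire 17 and 1, at 963.9, of sire 5. The fitted log2 difference was 0.88 (SE 0.19), and it was 0.62 without the progeny of sire 11 and 1.20 without those of sire 17.

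By family means, TNRC6B followed the muscling label except in sire 17. Sire 11 led at 1720.9, 1907.5 and 2175.7 (lowest, median and highest), with a mean log2 level of 10.91 (SD 0.12, n = 8), and none of its animals overlapped sires 2 or 7. Sire 2 had 860.0, 1098.7 and 1471.8, and sire 7 had 1340.3, 1147.9, 1116.0 and 1281.5. Sire 17, a low muscling sire, came second in the order at 10.37 (SD 0.64, n = 5), ahead of sire 7 at 10.25 (SD 0.13, n = 4) and sire 2 at 10.14 (SD 0.28, n = 7), and these 3 did not differ beyond their spread. The 5 animals of sire 17 had signals of 783.3, 2053.9, 894.4, 1434.6 and 1951.4. They reached from the low muscling level to that of sire 11. The progeny of sire 5 had 485.0, 647.55 and 963.9, and those of sire 16 had 474.6, 581.6 and 679.8. Of the sum of squares of TNRC6B, 46.7% lay between the muscling groups, 37.4% between sires of a group and 15.9% among progeny of a sire.

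A second TNRC6B probe set, designed on the same transcript sequence, gave the same families at the top and a smaller range. Its signals were 332.0, 666.5 and 822.1 in high muscling and 339.0, 476.0 and 855.3 in low muscling (lowest, median and highest). The ranges covered each other almost fully, since the lowest animal of all was a high muscling one and the highest a low muscling one. Most animals still lay apart: 17 of 19 high muscling animals were above the low muscling median. Likewise, 19 of 21 low muscling animals were below the high muscling median. The difference of mean log2 signals between the groups was 0.37, against 0.96 on the main probe set, and the range of the sire means was 0.81 against 1.75. The pair had r = 0.77 over the 40 animals and r = 0.25 with sire means removed, so they ranked families alike and animals of a family less so. In sire 17, progeny 88 had 1951.4 on the main and 580.5 on the second probe set, and progeny 71 was highest on both, at 2053.9 and 855.3. Over the 1302 genes with more than 1 detected probe set, the median r was 0.27 (quartiles 0.07 and 0.53), and 0.23 with sire means removed. The pooled r of TNRC6B was above the upper quartile, that of AGO2 just below it and that of DGCR8 below the lower quartile.

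**Figure D2:**
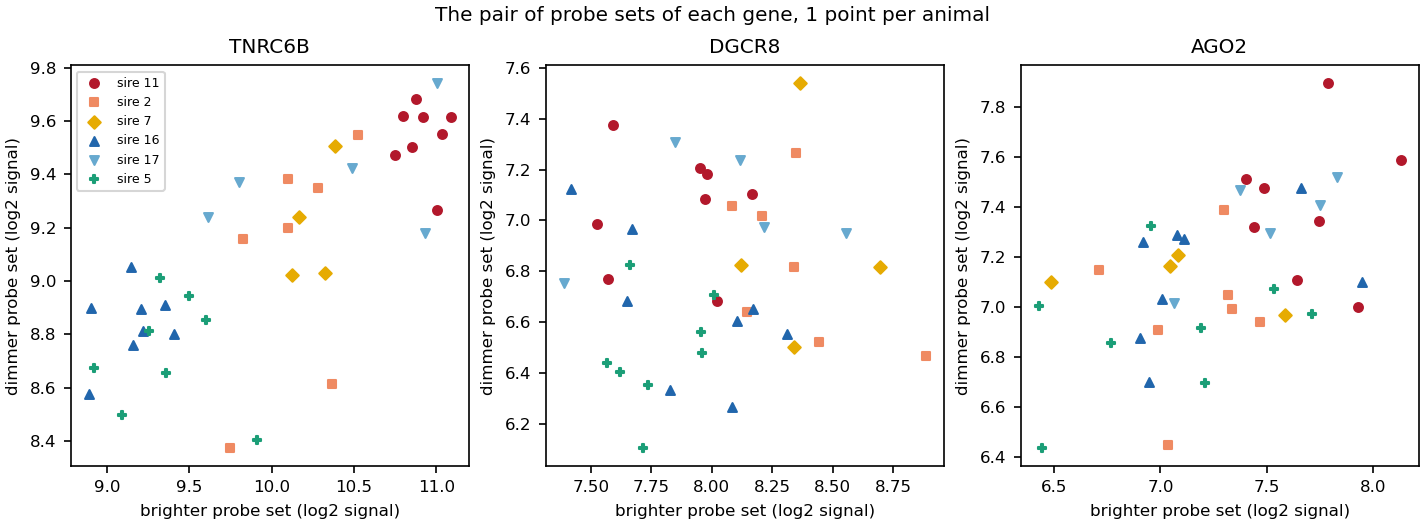
Log2 signal of the dimmer against the brighter probe set of TNRC6B, DGCR8 and AGO2, with 1 point per animal and colour and shape by sire. The pair rises together for TNRC6B (r = 0.77) and AGO2 (r = 0.51), and the points of DGCR8 show no slope (r = 0.03).

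The place of some families in the order was the same on most of the 7 probe sets. Sire 17 was the highest of the low muscling sires on 7 of 7 probe sets, as it was for 31.7% of detected genes. Sire 11 was the highest of all sires on 6, the main DGCR8 probe set being the exception, and for 16% of genes. Sire 5 was the lowest of all on 6, the main TNRC6B probe set, with sire 16 below it, being the exception, and for 12.6% of genes. Of these probe sets, 3 belong to DICER1 and TNRC6B, which were picked with their values known, and all were measured in the same animals and several share a gene, so the counts are a description only.

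Other genes of the pathway were taken from 7 lists with 75 genes, of which 49 were measured. The lists were written with earlier results of these data known. Leaving out DICER1 and TNRC6B, 45 were detected and tested. In high against low muscling, limma called 1 of the 45 higher (2.28% of all genes) and 2 lower (5.50% of all genes). The median log2 difference of the 45 was -0.01, beside -0.04 over all detected genes, and 22 of the 45 were above 0. Single genes went both ways, from -0.74 to 0.56, and 13 of the 45 (28.9%) had an unadjusted p under 0.05, beside 21.8% of all genes.

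The called gene that was higher was DCP1B, a cofactor of the enzyme that removes the cap of messenger RNAs, at 0.56 (SE 0.15, limma adjusted p = 0.0152). The lower ones were DDX5, a helicase of the Microprocessor, at -0.49 (SE 0.14, adjusted p = 0.0244), and RAN, the GTPase that drives nuclear export, at -0.27 (SE 0.07, adjusted p = 0.0105). These calls were lost when some families were left out, and that of DDX5 depended on the probe set. Without sire 16 or sire 5 most calls over all genes were lost too. With each family left out in turn, differences kept their sign: 0.33 to 0.67 for DCP1B, -0.60 to -0.38 for DDX5 and -0.34 to -0.22 for RAN. Without the progeny of sire 16, adjusted p values were 0.313 for DCP1B, 0.267 for DDX5 and 0.204 for RAN, and without those of sire 5 they were 0.0557, 0.209 and 0.221. DCP1B also missed the threshold without sire 11 (0.0511), and DDX5 without sire 7 (0.0621). With the mean over all its probe sets, DDX5 had a log2 difference of -0.03.

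The other genes with the smallest p of each list were not called. Within the Dicer complex, the RNA-binding cofactors TARBP2 and PRKRA had log2 differences of 0.08 (SE 0.22, limma adjusted p = 0.877) and -0.01 (SE 0.26, adjusted p = 0.983). In the Microprocessor list, the splicing factor SRSF3 was at -0.45 (SE 0.15, adjusted p = 0.0535). Among Argonaute loading and import genes, the import receptor IPO8 was at 0.22 (adjusted p = 0.131) and the co-chaperone FKBP4 at -0.20 (adjusted p = 0.177). In the deadenylation list, the catalytic subunit CNOT7 was at 0.36 (adjusted p = 0.161) and CNOT10 at -0.33 (adjusted p = 0.192). In the remaining lists, the decapping scaffold EDC4 was at 0.21 (adjusted p = 0.11), the poly(A) polymerase TENT2 at -0.28 (adjusted p = 0.0973), the uridylyl transferase TUT7 at 0.26 (adjusted p = 0.191) and RCC1, the exchange factor of RAN, at 0.22 (adjusted p = 0.284).

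**Figure D3:**
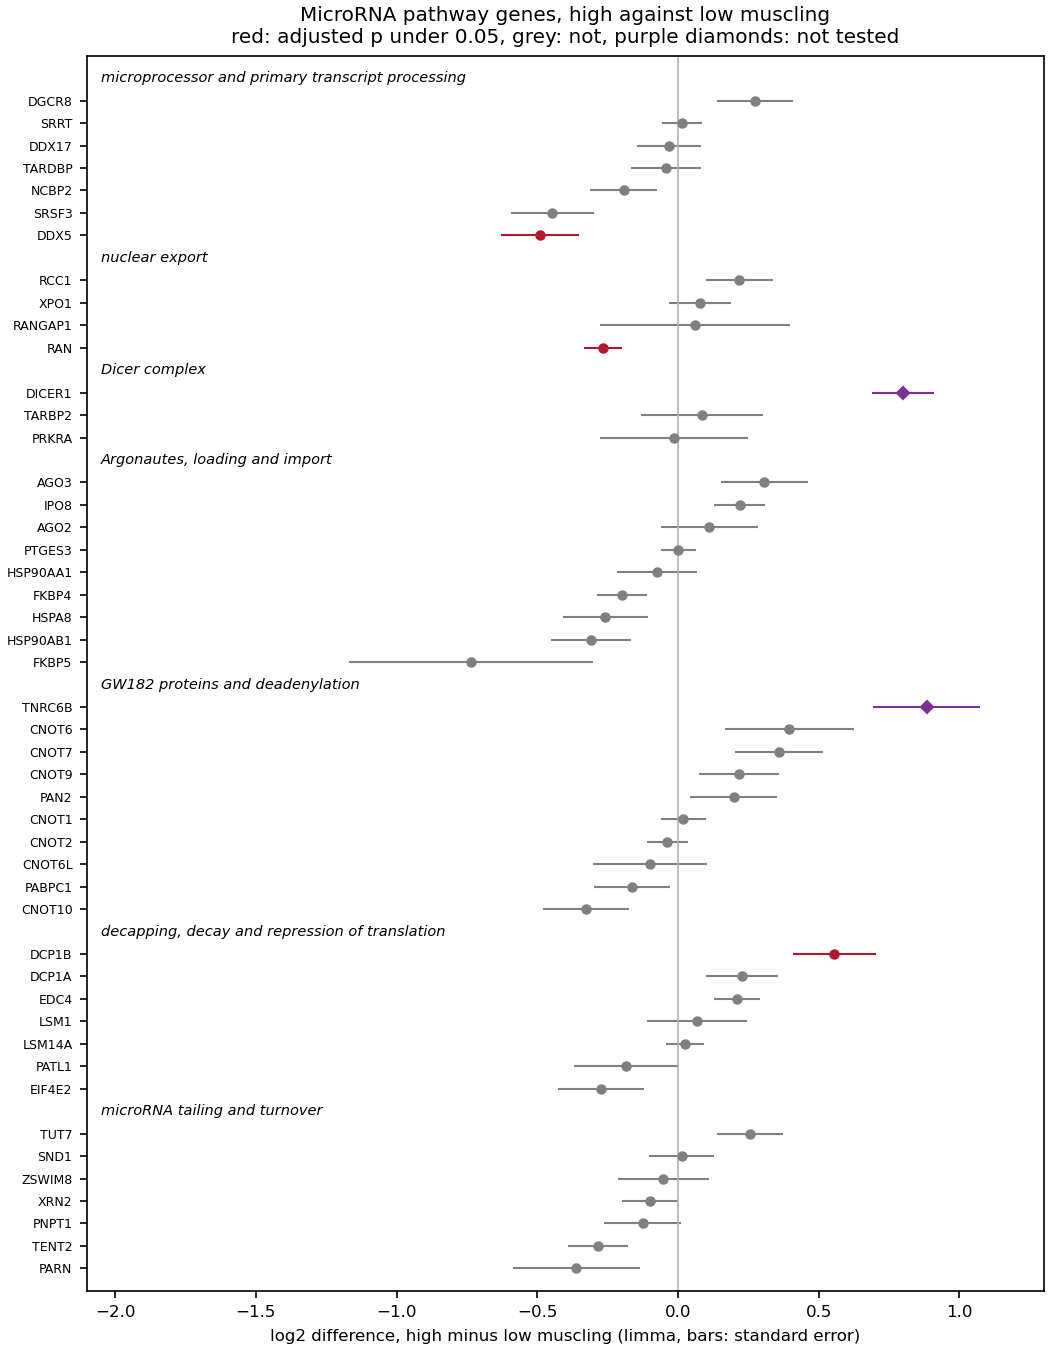
Log2 difference, high minus low muscling, of the detected genes of the 7 microRNA pathway lists, with the SE of the limma fit as bars. Red points passed an adjusted p of 0.05 (DCP1B, DDX5 and RAN), grey points did not, and the purple diamonds of DICER1 (0.80) and TNRC6B (0.88), which were not tested, lie to the right of all others.

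Between sires of a muscling group, 16 of the 45 pathway genes were called by the limma F test, a share of 35.6% beside 22.0% of all genes. Since the lists were written with earlier results known, this share is a description only. AGO3, an Argonaute close to AGO2, had the largest F of the 16, 15.8. Its signals were 507.1, 568.5 and 729.5 in sire 11 and 261.2, 339.5 and 495.5 in sire 2 (lowest, median and highest). Sire 17 stood highest among the low muscling sires at 350.5, 477.8 and 664.0, while sire 16 had 228.3, 283.25 and 352.9. No animal of sire 11 was as low as the highest of sire 2, sire 7 (397.0), sire 16 or sire 5 (446.1). The difference of AGO3 between the muscling groups was 0.31 (SE 0.15, adjusted p = 0.236).

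Of the 9 deadenylation genes tested, 4 were called between sires (44.4%, beside 22.0% of all genes). These 4 were above the mean of the 6 sires in both sire 11 and sire 17, a pattern not counted over all genes. Of the genes not called, CNOT2 and CNOT9 also had sires 11 and 17 highest. CNOT10 was lowest in sire 11, CNOT7 was lowest in sire 17 and PAN2 was highest in sire 7. CNOT6, a catalytic subunit of CCR4-NOT (F = 10.4), was 0.91 above the mean of the 6 sires in sire 11 and 0.26 above it in sire 17, on the log2 scale. CNOT6L, its paralogue (F = 5.34), was 0.47 and 0.34 above it and close to the detection signal, with a mean signal of 78.1, and CNOT1, the scaffold (F = 10.5), 0.15 and 0.27. PABPC1, the poly(A)-binding protein (F = 9.73), was 0.36 and 0.22 above it, and its call was lost with the mean over all probe sets (adjusted p = 0.346 by limma). Others called were TUT7, IPO8, DCP1B, the co-chaperone PTGES3 and RAN. ZSWIM8, a ubiquitin ligase adaptor known for the decay of Argonautes on some targets (F = 11.6), ran the other way, at -0.60 in sire 11 and -0.16 in sire 17, as did the helicase DDX17 (F = 7.55), at -0.31 and -0.23. The call of DDX17 was lost with the mean over all probe sets (adjusted p = 0.745 by limma). SRRT, a cofactor of primary transcript processing (adjusted p = 0.0452), FKBP4 (adjusted p = 0.0413), DGCR8 and AGO2 complete the 16. Several of these calls rested on single animals: those of RAN and IPO8 were lost without progeny 71 of sire 17 (adjusted p = 0.0829 and 0.0841 by limma) or progeny 85 (0.064 and 0.0674). That of TUT7 was lost without any of 4 animals of sire 17, and that of SRRT without any of the 4 of sire 7, with adjusted p values up to 0.0659 and 0.0731. DCP1B was not called with the mean over all probe sets (0.148).

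**Figure D4:**
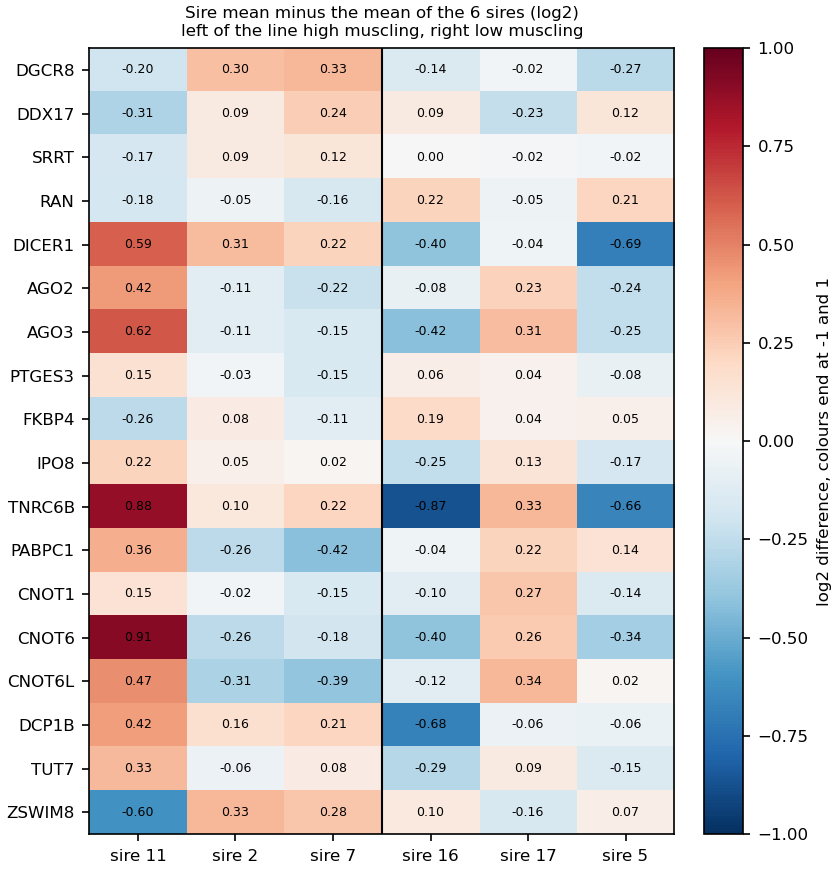
Mean log2 signal of each sire's progeny minus the mean of the 6 sires, for the 16 pathway genes called between sires and for DICER1 and TNRC6B, which were not tested. High muscling sires are left of the black line. Sire 11 is highest for TNRC6B (0.88), CNOT6 (0.91) and AGO3 (0.62), and lowest for ZSWIM8 (-0.60).

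Animal by animal, DICER1 and TNRC6B were less alike than their families. Over the 40 animals, r was 0.83, which includes the differences between families. With sire means removed, r was 0.34 (Spearman's rho 0.37, n = 40), and 0.42 without the 2 animals farthest from the median in DICER1. No animals were left out by their TNRC6B level. Within the families of at least 7 animals, r was -0.02 in sire 11, 0.28 in sire 2, 0.29 in sire 16 and 0.74 in sire 5. TNRC6B ranked 7 among all detected genes by pooled r with DICER1 and 186 once sire means were removed. The pair was chosen with these correlations known, and they are given without a test.

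TNRC6B was closer to AGO3. Their r was 0.85 over all animals and 0.62 with sire means removed (rho 0.64, n = 40). It was 0.56 without the 2 animals farthest from the median in TNRC6B. Within families it was 0.94 in sire 2, 0.42 in sire 16, 0.22 in sire 11 and 0.21 in sire 5. AGO3 ranked 31 among all detected genes for TNRC6B with sire means removed. AGO2 was not like it: r of TNRC6B with AGO2 was 0.40 over all animals and -0.08 with sire means removed. DGCR8 and TNRC6B had r of 0.03 over all animals and -0.39 with sire means removed, and -0.15 without the 2 animals farthest in TNRC6B. With sire means removed, r of TNRC6B leans on sire 17, whose 5 animals had an SD of 0.64. The other families had at most 0.31, and no r was computed within sire 17. DGCR8 and AGO2, the 1 pair tested, had r = -0.27 with sire means removed (rho = -0.28, permutation of animals within sires, two-sided p = 0.0923 for r and 0.0934 for rho). Without the 2 animals farthest in DGCR8, this r was -0.19. Over the 6 pairs of members the median r was -0.05 with sire means removed and 0.33 over all animals.

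**Figure D5:**
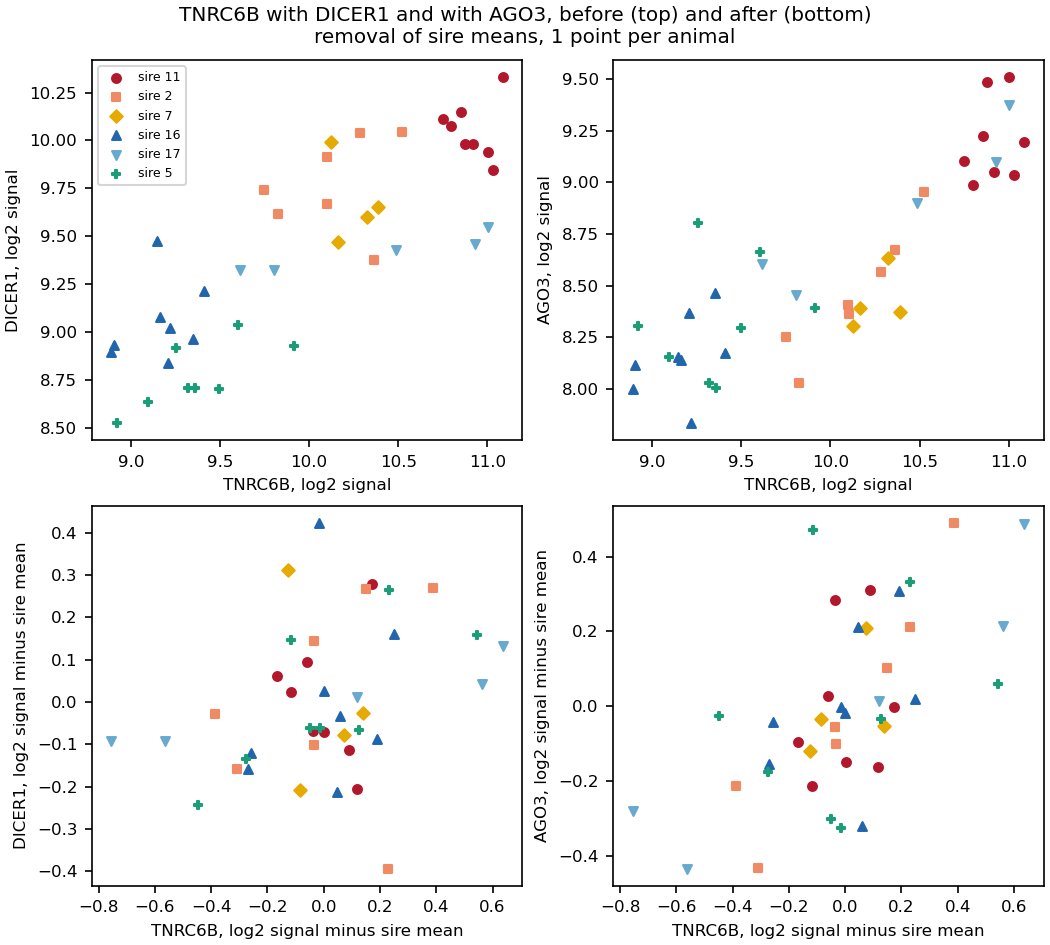
Log2 signal of DICER1 (left) and AGO3 (right) against TNRC6B, as measured (top) and after subtracting each sire's mean (bottom), with 1 point per animal and colour and shape by sire. Removing the sire means lowers r from 0.83 to 0.34 for DICER1 and from 0.85 to 0.62 for AGO3.

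The genes most like each of the leading pair were ranked by r over the 40 animals with sire means removed, among all detected genes. For DICER1 the closest were CSNK1A1, a casein kinase (r = 0.59), SAMM50, which assembles proteins of the mitochondrial outer membrane (0.52), LZTS3 (0.51), the acyltransferase GPAT3 (0.50) and the GABA receptor subunit GABBR1 (0.49). At the other end stood BNIP3L, a mitophagy receptor (-0.61), the ribosomal protein gene RPS4Y1 (-0.60), ERRFI1, an inhibitor of the EGF receptor (-0.58), the chemokine CCL21 (-0.57) and LOC282255 (-0.56). For TNRC6B the closest were CTNNAL1 (0.82), the deubiquitinase OTUD4 (0.77), the nuclear receptor coactivator NCOA1 (0.76), the calcium channel subunit CACNA2D1 (0.75) and C18H16orf87 (0.72). The most opposed were EIF6, a factor of ribosome assembly (-0.70), the RNA-binding protein RBM42 (-0.70), the dynein subunit DYNC1LI1 (-0.68), progranulin, GRN (-0.68), and DES, the desmin of muscle intermediate filaments (-0.67). The highest r of TNRC6B was 0.82 and that of DICER1 0.59. TNRC6B was selected on its strong correlations over these same animals, so nothing is read from its higher r. The SD among progeny of a sire was 0.30 for TNRC6B and 0.19 for DICER1. For TNRC6B this SD was 0.64 in sire 17 and at most 0.31 in the other families.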

How the data were processed

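Total RNA of longissimus dorsi was labelled and hybridised to the Affymetrix GeneChip Bovine Genome array, with a separate array for every animal. Each deposited value is the MAS5 intensity of a probe set on a linear scale, and the authors had scaled every array to a trimmed mean of 200. No version of MAS5 is given in the sources used here. Signals ranged from 0.1 to 36463.9. Arrays give no read counts, and the number of arrays limits the precision. Nothing in the labels names a scan date or another batch. Of 24016 probe sets other than controls, 13292 had 1 symbol, 86 several and 10638 none in the platform annotation, which may be old.

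Analyses used log2 signals of 1 probe set per gene, the one with the highest mean, and kept genes whose signal averaged 61.8 or more. The difference between muscling groups was fitted in R 4.3.3 by limma 3.58.1 with sire as a random block. Families were compared by an F test on 4 degrees of freedom. P values were adjusted by Benjamini-Hochberg over 6360 genes. DGCR8 and AGO2 were also compared by 100000 permutations within sires. The limma fits were tested on simulated data. Tables were handled in Python 3.11.15.

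The members and the gene lists were chosen with earlier results of these data known. Genes named are the members, in each pathway list the called genes (at most 4) and the 2 with the smallest p in each test, the 5 genes of highest and 5 of lowest r with DICER1 and TNRC6B, and markers. AGO3 was set beside the members after its values were seen. The sheep assembly was not used for coordinates, since the array was designed on cattle sequence, and no sequences are shown.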

Additional observations from a re-analysis of the deposited data

How the results depend on the processing

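The log2 difference of DICER1 lay between 0.74 and 0.84 under the settings that kept all families, and that of TNRC6B between 0.61 and 0.96, with 0.33 on its second probe set. With families left out in turn, AGO2 ranged from -0.0987 (without sire 11; -0.00108 without sire 5) to 0.229, TARBP2 from -0.0541 (without sire 11) to 0.215 and PRKRA from -0.179 to 0.214. PRKRA was also above 0 when all its probe sets were averaged (0.129), with sire means as samples (0.0343) and with the 3' to 5' ratio as a covariate (0.00646). Without a block for sire, limma called 531 genes higher and 1055 lower, among them 7 and 7 pathway genes and 4 and 2 host genes. With sire means as samples it called 0 and 0, and 0 pathway genes either way, while 886 genes, 6 of them pathway genes, had an unadjusted p under 0.05. Median centring gave 93 genes higher and 564 lower, with 4 pathway genes lower, and quantile normalization 1 pathway gene lower. The 3' to 5' covariate gave 1 host gene higher and 0 members called between sires, where both had an unadjusted p under 0.05. With no filter on low signals, 1 host gene was called between sires. Leaving out 1 family at a time, genes called higher ranged from 7 to 383 and lower from 16 to 838, pathway genes from 0 to 6 and 0 to 5, host genes from 0 to 3 and 0 to 1, and members higher from 0 to 1. Over all genes the fewest came without sire 5 (7 and 16) or sire 16 (9 and 20) and the most without sire 17, while the most pathway genes lower (5) and the 1 member called higher came without sire 11. Leaving out 1 animal of sire 7 or 17, members called between sires ranged from 1 to 2 and host genes from 2 to 5. The median r over pairs of members was 0.33 with sire means kept, 0.10 without sire 5, and ranged from -0.13 to 0.10 over the families left out. The cause of these changes was not tested. No paired analysis was possible because replicate numbers were given in accession order and pair no animals.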

Other observations

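Many microRNAs lie in introns of protein-coding genes, and 21 of 28 listed host genes were measured, 16 of them above the detection signal. Between the muscling groups 0 of the 16 were called by limma, beside 7.78% of all genes. An unadjusted p under 0.05 was found for 6 of them (37.5%), beside 21.8% of all genes, and for 1 without the progeny of sire 5. SLIT2, a guidance factor and host of miR-218, had a log2 difference of 0.68 (SE 0.26, adjusted p = 0.104). Its mean signal of 65.7 passed the detection signal of 61.8 only through the high muscling group, with mean log2 levels of 6.26 in high and 5.53 in low muscling, so this difference is no support for a change. HUWE1, a ubiquitin ligase gene, had a difference of 0.31 (SE 0.11, adjusted p = 0.0681). The median of the 16 was 0.01. Between sires of a group, 4 of the 16 were called, a share of 25% beside 22.0% of all genes. These were SREBF2, a regulator of sterol synthesis and host of miR-33 (F = 7.70, adjusted p = 0.002), SLIT3 (adjusted p = 0.0326), ARPP21 (adjusted p = 0.0327) and HUWE1 (adjusted p = 0.0413). Without progeny 98 of sire 7, the adjusted p was 0.342 for ARPP21 and 0.0637 for SLIT3. ARPP21 was also lost without progeny 18 of sire 7 (0.113), and HUWE1 without progeny 39 (0.0812) or 79 (0.0589) of sire 17. The microRNAs themselves were not measured on this array as analysed here.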
